A study of Mus musculus with 8 samples.

Results

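The circadian clock genes described here were Arntl, Clock, Per1, Per2, Per3, Cry1, Cry2, Nr1d1, Nr1d2 and Dbp. They were taken as a named list, by symbol in the control tables and by Entrez identifier matched to a symbol in the mutant tables, and all 10 were found among the 17652 genes that could be matched between the tables. The study asked how the kinase Pyk2, encoded by Ptk2b, shapes contextual fear memory, a form of learning that needs the hippocampus. Hippocampal RNA from C57BL/6 mice was sequenced in 8 libraries of 4 groups, with 2 libraries each: a CRISPR Pyk2 knockout (KO), a CRISPR mutant carrying the Y402F change at the autophosphorylation tyrosine of Pyk2 (Y402F), wild-type controls of the KO line (KO controls) and wild-type controls of the Y402F line (Y402F controls). Age, sex, time of day at collection, housing light cycle and whether a library came from 1 animal are not given in the sources used here. Where a p-value is printed, it therefore rests on the spread among the libraries, which may be technical.

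The clock is a feedback loop of transcription that runs in most cells of the body, the hippocampus included. CLOCK and BMAL1, the product of Arntl, bind E-boxes and activate the Period and Cryptochrome genes, whose proteins return to the nucleus and repress them. The same activators drive Nr1d1 and Nr1d2, which encode the REV-ERB repressors of Arntl, and Dbp, an output factor that acts through D-boxes. In many mouse tissues Dbp, the REV-ERB genes and the Period genes are high through the day and towards dusk. Arntl is high late in the night, so that the balance between these genes in a sample varies with the time of day.

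Promoter windows of 300 bases, from 250 before to 50 after an annotated transcription start, were available from RefSeq (GRCm38.p6) for 9 of the 10 genes, in 13 windows, but not for Per2. Both strands were searched for the E-box CACGTG, the D-box TTATGNAA, the CRE TGACGTCA and the REV-ERB and ROR response element. Matches were found in 4 windows of 4 genes, and these are shown because they carry the elements through which the loop is described. Capitals mark the matched letters: in order, the REV-ERB and ROR element at +28 of Arntl, the E-box at -166 and the D-box at -24 of Per1, the D-boxes at -205 and -158 of Per3, and the E-box at -60 of Cry1, counted from the start site. No match overlaps another.
Arntl, chr7:113207261-113207560, + strand: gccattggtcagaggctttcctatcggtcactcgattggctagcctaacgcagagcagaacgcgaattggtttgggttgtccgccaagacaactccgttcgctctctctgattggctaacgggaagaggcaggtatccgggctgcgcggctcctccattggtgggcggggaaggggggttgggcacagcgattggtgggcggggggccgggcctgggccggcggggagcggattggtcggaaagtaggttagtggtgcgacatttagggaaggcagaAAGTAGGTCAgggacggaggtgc
Per1, chr11:69098699-69098998, + strand: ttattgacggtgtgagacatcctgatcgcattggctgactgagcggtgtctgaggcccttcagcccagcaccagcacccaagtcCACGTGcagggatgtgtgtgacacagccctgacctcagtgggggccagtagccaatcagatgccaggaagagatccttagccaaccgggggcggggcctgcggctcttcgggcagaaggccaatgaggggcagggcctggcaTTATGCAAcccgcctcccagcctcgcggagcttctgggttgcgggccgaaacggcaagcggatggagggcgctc
Per3, chr4:151044616-151044915, - strand: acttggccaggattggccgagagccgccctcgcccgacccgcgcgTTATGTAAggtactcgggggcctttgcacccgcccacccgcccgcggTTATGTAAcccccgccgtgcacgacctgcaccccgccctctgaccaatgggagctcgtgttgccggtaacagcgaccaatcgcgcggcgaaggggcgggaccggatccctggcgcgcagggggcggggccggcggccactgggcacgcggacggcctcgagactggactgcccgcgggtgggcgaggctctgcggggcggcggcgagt
Cry1, chr10:85185005-85185304, - strand: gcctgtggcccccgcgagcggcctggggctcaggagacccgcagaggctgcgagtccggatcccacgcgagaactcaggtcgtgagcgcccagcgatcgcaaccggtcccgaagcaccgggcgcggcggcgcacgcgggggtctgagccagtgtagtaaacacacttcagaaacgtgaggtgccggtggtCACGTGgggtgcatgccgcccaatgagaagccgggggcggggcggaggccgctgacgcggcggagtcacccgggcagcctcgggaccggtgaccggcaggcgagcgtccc
Among 32851 windows of the same length, 7.15% held the E-box, 3.38% the D-box, 0.606% the REV-ERB and ROR element and 1.79% the CRE. A match is a string of letters and was not tested as a binding site.

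The mutant libraries held 5756180 to 6017219 expected counts, and the depth of the control libraries is unknown because their tables give no counts. The levels below are scaled FPKM, that is length-normalized fragment counts after division by a median-of-ratios factor for each library, so that they can be set side by side between genes and libraries, and the values of a group are given as replicate 1 and then replicate 2 unless stated otherwise. The mutant and control tables came from different quantification steps, so genotype and processing cannot be told apart in a comparison across them. All 8 markers of hippocampal neurons were present. Of 6 markers of the suprachiasmatic nucleus, the seat of the central clock, Avp and Nms were at 0 in the control libraries. Six6 reached at most 0.035 in the control libraries. Avp, Nms and Six6 were not among the genes matched to the mutant libraries. Prok2 and Lhx1 reached at most 0.61 and 0.74 in any library. Vip, which hippocampal interneurons also express, was at 6.44 to 13.1. Ptk2b was at 56.1 and 68.7 in KO and 353 and 396 in Y402F, against 309 and 308 in KO controls and 323 and 317 in Y402F controls. Replicate 1 of KO and of Y402F had a female pattern (Xist 25.5 and 40.1) and replicate 2 of both a male one (Ddx3y 5.07 and 4.74). The female pattern, read as Xist above Ddx3y, was also that of KO control 1 and 2, where Xist was lower, at 3.95 and 3.24. KO control 2 also held Eif2s3y at 0.69 and Kdm5d at 0.27, markers of the male pattern that were at 0 in KO control 1. The male pattern was that of Y402F control 1 and 2 (Ddx3y 5.77 and 4.78). Markers of choroid plexus summed over 9 genes to 40.2 and 54.3 in KO and 39.7 and 755 in Y402F, against 49.6 and 48.4 in KO controls and 1148 and 1176 in Y402F controls.

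The highest 3 places among the clock genes were held by Nr1d1, Dbp and Cry2 in all 8 libraries. Nr1d1 was the highest and Dbp the second in all 4 mutant libraries, whereas Dbp was the highest and Nr1d1 the second in all 4 control libraries. Cry2 came next in all 8. The order below them varied, with Nr1d2 at place 4 to 7, Per1 at 4 to 6, Arntl at 5 or 6, Clock at 7 or 8 and Cry1 at 5 to 10. Per2, Per3 and Cry1 were low, at 3.11 to 9.42, 3.29 to 4.89 and 3.22 to 14.96 scaled FPKM over the 8 libraries, and did not separate from each other beyond their spread. In a bulk library fewer cells that express a gene and less RNA per cell cannot be told apart.

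**Figure D1:**
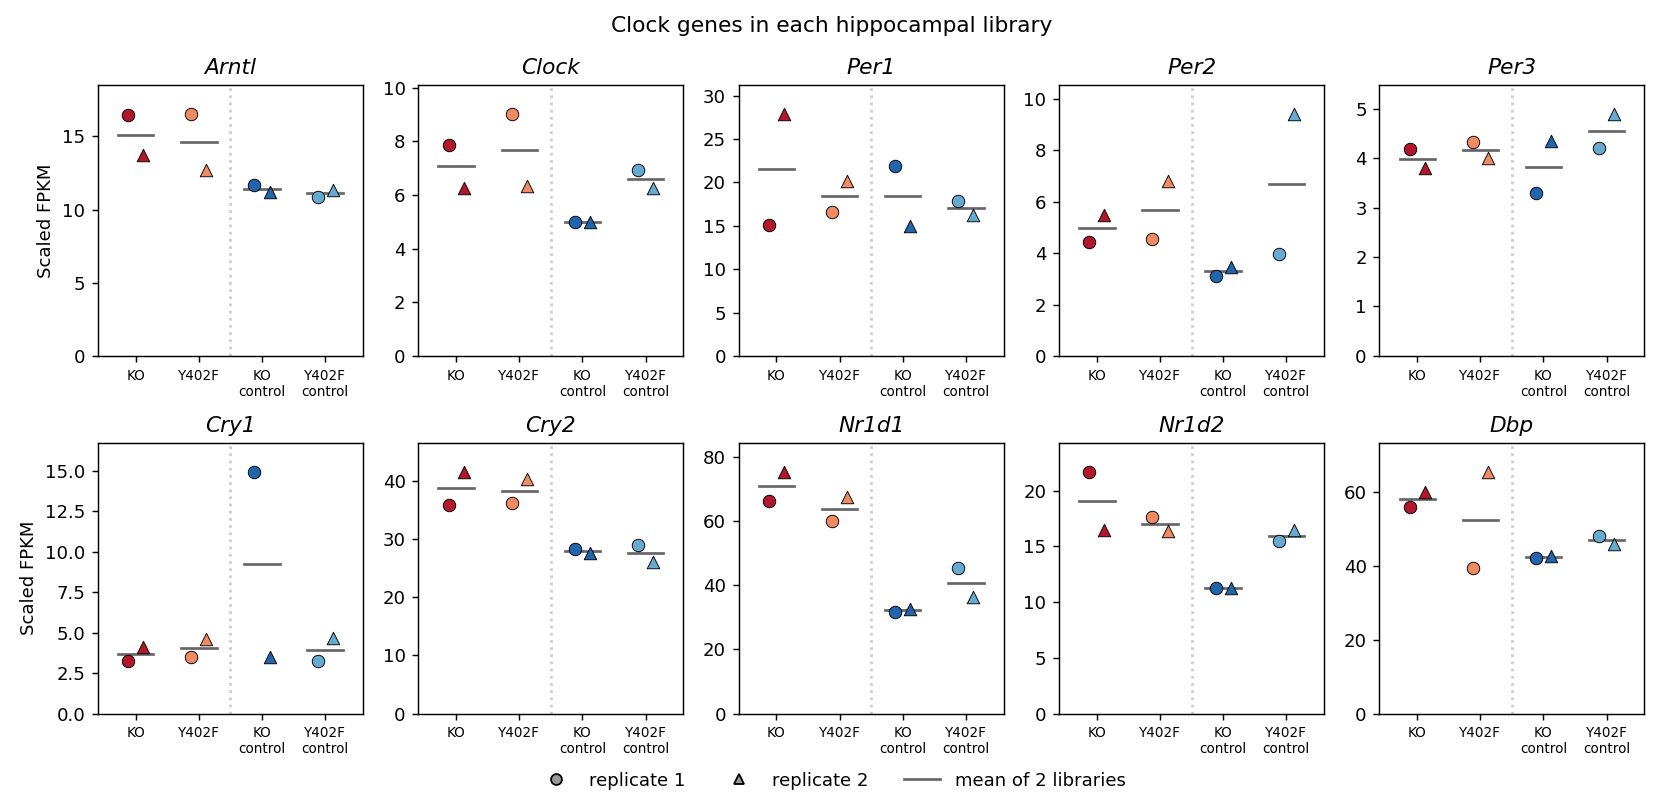
Scaled FPKM (y axis, starting at 0) of the 10 clock genes in each library, by group, with circles for replicate 1, triangles for replicate 2 and a bar at the mean of the 2 libraries. Arntl, Cry2 and Nr1d1 were higher in all 4 mutant libraries than in any of the 4 control libraries. The share of all genes that separated in this way was not counted. Cry1 in KO control replicate 1, at 14.96, stood above its other 7 libraries.

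Arntl (chromosome 7, 113207465 to 113314126, + strand, GRCm38), which encodes BMAL1, was at 16.5 and 13.7 scaled FPKM in KO and 16.5 and 12.7 in Y402F, against 11.7 and 11.2 in KO controls and 10.8 and 11.4 in Y402F controls. All 4 mutant values lay above all 4 control values, and in both mutant groups replicate 1 was the higher library. Cry2 and Nr1d1 below also separated in this way. How many of all genes did so was not counted, so the separation shows nothing particular to these genes. Clock (chromosome 5, 76209868 to 76304792, - strand), the partner of BMAL1, was at 7.87 and 6.26 in KO and 9.02 and 6.33 in Y402F, against 4.98 and 5.005 in KO controls and 6.94 and 6.26 in Y402F controls. The mutant and control values of Clock overlapped, and its highest 2 levels were again those of replicate 1 of the mutants. The ratio of Arntl to Clock stayed between 1.56 and 2.35 in all 8 libraries.

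Of the repressors, Per1 (chromosome 11, 69095217 to 69109960, + strand) was the most expressed Period gene in each library. Per1 is also an early-response gene that light, glucocorticoids and neuronal activity induce. Its levels were 15.1 and 27.9 scaled FPKM in KO and 16.6 and 20.1 in Y402F, against 21.9 and 14.9 in KO controls and 17.9 and 16.3 in Y402F controls. KO replicate 2 was the highest of the 8 and the groups overlapped. In the same KO replicate 2 the 10 activity-induced genes summed to 326, against 248 in KO replicate 1, whereas in Y402F the order was the other way, with 165 in replicate 2 and 207 in replicate 1. The part of these genes in the levels of Per1 was not tested.

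Per2 (chromosome 1, 91415982 to 91459324, - strand) was at 4.44 and 5.50 scaled FPKM in KO and 4.53 and 6.79 in Y402F, against 3.11 and 3.47 in KO controls and 3.97 and 9.42 in Y402F controls. The highest and the lowest of these values were both control libraries. The confidence bounds in the authors' deposited tables ran from 0 to 20.9 FPKM around the highest value, 9.90 FPKM before scaling. Around KO control 1 and 2, at 3.25 and 3.63 FPKM before scaling, they ran from 0 to 9.30 and from 0 to 9.65. In Y402F control 1, at 4.16 FPKM, they were narrower, at 2.78 to 5.54. Per3 (chromosome 4, 151003652 to 151044665, - strand), the Period gene that is dispensable for the central loop, was at 4.18 and 3.80 in KO and 4.33 and 4.004 in Y402F, against 3.29 and 4.34 in KO controls and 4.20 and 4.89 in Y402F controls. Its groups overlapped throughout.

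Cry1 (chromosome 10, 85131700 to 85185064, - strand), the cryptochrome that is the stronger repressor of CLOCK and BMAL1, was at 3.23 and 4.10 scaled FPKM in KO and 3.53 and 4.62 in Y402F, against 14.96 and 3.53 in KO controls and 3.22 and 4.65 in Y402F controls. KO control replicate 1 stood above the other 7 libraries, which ran from 3.22 to 4.65. In the authors' deposited tables its value was 15.6 FPKM with bounds of 0 to 38.2, and KO control replicate 2 had 3.69 FPKM with bounds of 0 to 18.9. The mutant libraries held 54 to 80 expected counts of Cry1, the fewest of the 10 genes. Cry2 (chromosome 2, 92403646 to 92434043, - strand), the second cryptochrome, was at 35.8 and 41.6 in KO and 36.3 and 40.3 in Y402F, against 28.2 and 27.6 in KO controls and 29.1 and 26.0 in Y402F controls. No mutant value of Cry2 fell among the control values. The ratio of Cry2 to Cry1 was 8.72 to 11.1 in the mutant libraries and 1.89 to 9.01 in the control libraries.

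Among the 10 genes, Nr1d1 had the largest difference called between mutant and control libraries. Nr1d1 (chromosome 11, 98767932 to 98775333, - strand), which encodes REV-ERB alpha, was at 66.2 and 75.5 scaled FPKM in KO and 60.1 and 67.6 in Y402F, against 31.8 and 32.6 in KO controls and 45.4 and 36.4 in Y402F controls. The lowest mutant library was above the highest control library, and the KO controls were the lowest group. Nr1d2 (chromosome 14, 18204054 to 18239127, - strand), which encodes REV-ERB beta, was at 21.7 and 16.4 in KO and 17.6 and 16.4 in Y402F, against 11.3 and 11.3 in KO controls and 15.4 and 16.4 in Y402F controls. Here only the KO controls stood apart, and Y402F met its own controls at 16.4. The ratio of Nr1d1 to Nr1d2 was 3.05 and 4.59 in KO and 3.42 and 4.13 in Y402F, against 2.82 and 2.90 in KO controls and 2.94 and 2.21 in Y402F controls, so that the mutant values all lay above the control values.

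Nr1d1 overlaps Thra, the gene of thyroid hormone receptor alpha, on the opposite strand, with 263 of 3077 exon bases of Nr1d1 shared in GENCODE M21. Whether the counting used strand is not stated, so reads of the pair cannot be assigned with certainty. Thra itself was at 408 and 466 scaled FPKM in KO and 394 and 478 in Y402F, against 713 and 716 in KO controls and 593 and 572 in Y402F controls. Thra was thus lower in the mutants than in the controls, where Nr1d1 was higher, while within both mutant groups Thra and Nr1d1 were both higher in replicate 2. Its part in the levels of Nr1d1 was not tested. Opposite-strand overlaps also exist for Dbp with Sphk2 (539 of 2993 exon bases), Cry2 with D930015M05Rik (295 of 6320) and Arntl with Gm45355 (33 of 7523).

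Dbp (chromosome 7, 45705088 to 45710203, + strand), the output factor, was at 55.9 and 60.1 scaled FPKM in KO and 39.4 and 65.5 in Y402F, against 42.0 and 42.5 in KO controls and 48.1 and 45.9 in Y402F controls. The 2 Y402F libraries held both the lowest and the highest value of Dbp in the series. Y402F replicate 2, the higher, was also the mutant library with choroid plexus RNA, with the choroid plexus transcript Ttr at 656 against 2.23 in Y402F replicate 1. In the Y402F controls Ttr was higher still, at 1015 and 1032, with Dbp at 48.1 and 45.9. Its part in the Dbp difference was not tested. The ratio of Dbp to Arntl, in which library scaling cancels, was 3.39 and 4.38 in KO and 2.38 and 5.16 in Y402F, against 3.598 and 3.81 in KO controls and 4.44 and 4.04 in Y402F controls.

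Within the mutant groups the direction of the difference between libraries was shared by KO and Y402F, though its size varied. Per1, Per2, Cry1, Cry2, Nr1d1 and Dbp were higher in replicate 2 than in replicate 1 of both KO and Y402F, and Arntl, Clock, Per3 and Nr1d2 were lower in replicate 2 of both. The difference had the same sign in KO and in Y402F for 10 of 10 clock genes, beside 64.4% of the 12870 genes tested in this way. Between the 2 control groups, the sign of the same difference was shared by 4 of 10 clock genes and by 49.5% of all genes. The labels do not say that a replicate number links libraries. The clock genes also regulate each other, so their signs are not independent. The replicate numbers go with the sex pattern in the mutants, so replicate, sex and anything else that differed between those libraries cannot be told apart. The control groups hold 1 sex pattern each.

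On the log2(scaled FPKM + 1) scale, Arntl in replicate 2 minus replicate 1 was -0.25 in KO and -0.35 in Y402F, and Clock was -0.29 and -0.45 in the same order. The control differences of these activators lay between -0.13 and 0.06. Per1 differed by 0.84 in KO and 0.26 in Y402F, Dbp by 0.10 and 0.72, and Per2 by 0.26 and 0.49. Against these stand median absolute differences of 0.16 and 0.18 over the 9149 genes with a mean of 5 scaled FPKM or more, and 95th percentiles of 0.49 and 0.52. Only Per1 in KO and Dbp in Y402F passed those percentiles, and the other 8 genes stayed within them in both groups.

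These differences were also set beside counting error. Exact Poisson 95% intervals of the expected counts, which cover counting error only, were set at equal depth. They were then apart for 4 of the 10 genes in KO (Per1, Cry2, Clock and Nr1d2) and for 5 in Y402F (Per1, Per2, Arntl, Clock and Dbp). The share of all genes with intervals apart was not counted, so these numbers show nothing particular to the clock genes. Per1 had 736 expected counts in KO replicate 2 (684 to 791) and 390 in KO replicate 1 (352 to 431). Dbp had 622 in Y402F replicate 2 (574 to 673) and 361 in Y402F replicate 1 (325 to 400). Before that adjustment the library totals of replicate 2 over replicate 1 were 1.04 in KO and 1.03 in Y402F.

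**Figure D2:**
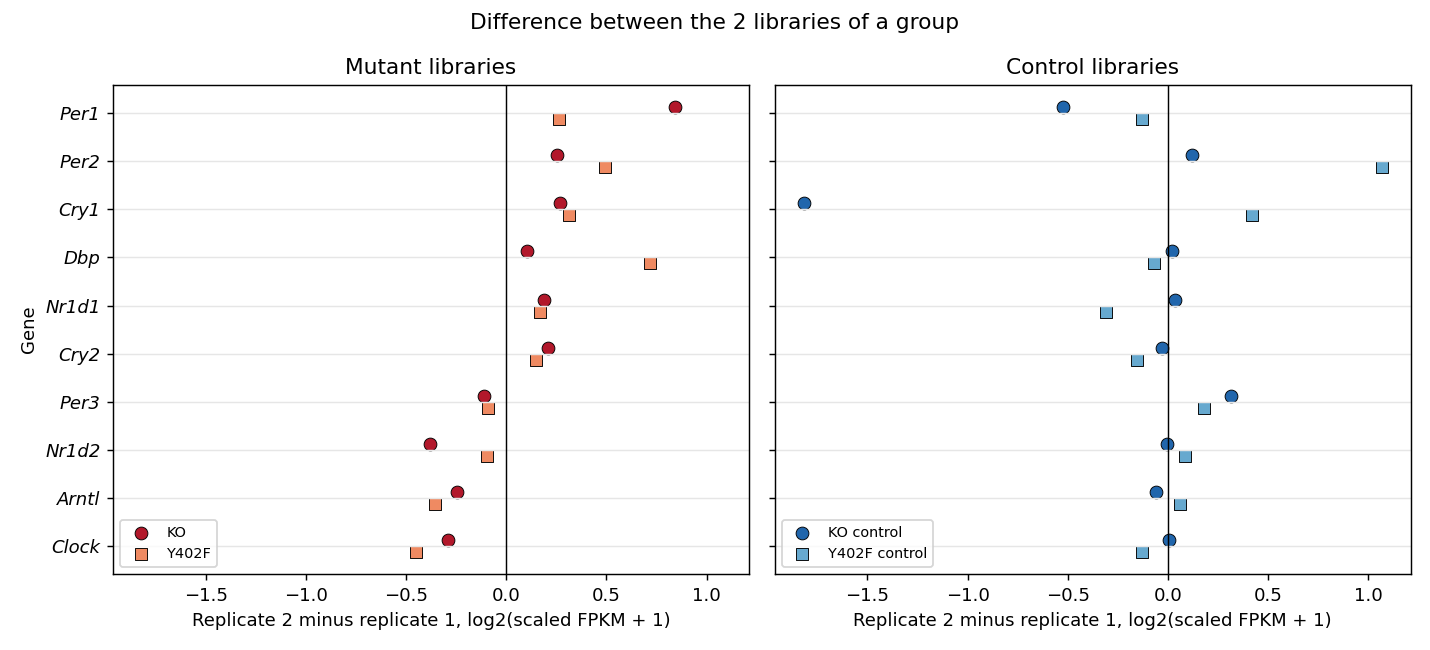
Replicate 2 minus replicate 1 on the log2(scaled FPKM + 1) scale (x axis) for each clock gene (y axis), in the mutant groups on the left and the control groups on the right. In the mutants both points of a gene lie on the same side of 0 for all 10 genes, and in the controls for 4 of 10.

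Of 18 other clock genes that could be set against this pattern, 13 had the same sign in both mutant groups (72.2%). Ciart, which encodes the CLOCK and BMAL1 repressor CHRONO and was singled out after its values were seen, was at 11.2 in KO replicate 2 and 6.86 in KO replicate 1, and at 9.55 and 4.62 in the same libraries of Y402F. Npas2, the paralog of Clock, was at 9.05 in replicate 2 and 10.6 in replicate 1 of KO and at 7.55 and 9.13 in those of Y402F. The Poisson intervals of Ciart overlapped at equal depth in KO and were apart in Y402F, and those of Npas2 overlapped in both. Hlf, Tef and Nfil3 were also chosen after their values were seen. Hlf, a paralog of Dbp, was lower in replicate 2 than in replicate 1, unlike Dbp. Its differences were -0.36 in KO and -0.016 in Y402F on the log2(scaled FPKM + 1) scale. Tef, another paralog of Dbp, was higher in replicate 2, as Dbp was, by 0.090 in KO and 0.33 in Y402F. Nfil3, which encodes a repressor that opposes DBP at D-boxes, was higher in replicate 2 by 0.51 and 0.32.

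The balance of the loop was read in each library as a phase index, the mean log2 FPKM of Per1, Per2, Per3, Nr1d1, Nr1d2 and Dbp minus that of Arntl and Clock. The index was 0.56 and 1.02 in KO and 0.34 and 1.04 in Y402F, against 0.69 and 0.72 in KO controls and 0.76 and 0.97 in Y402F controls. Both groups of mutants spanned all 4 control values of the index. Group means were 0.79 ± 0.32 in KO and 0.69 ± 0.50 in Y402F, against 0.70 ± 0.03 in KO controls and 0.87 ± 0.15 in Y402F controls (SD, n = 2 each). KO minus Y402F was 0.10, KO minus KO controls 0.09 and Y402F minus Y402F controls -0.18, each below the SD of one of the groups compared, and KO controls minus Y402F controls was -0.16, slightly above the larger SD of 0.15. Without Nr1d1, a choice made after the values were seen, KO minus KO controls turned to -0.035 and Y402F minus Y402F controls moved to -0.28, both still below the SD of 0.32 in KO and 0.50 in Y402F.

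The index moved by 0.45 between the 2 KO libraries and by 0.70 between the 2 Y402F libraries, more than between any group means. In the mutants the means of both sides of the index differed between libraries: Arntl and Clock averaged 3.13 in KO replicate 2 and 3.44 in replicate 1, and 3.09 and 3.53 in those of Y402F, in log2 FPKM. The 6 genes on the other side averaged 4.14 and 4.004 in KO and 4.13 and 3.87 in Y402F, again replicate 2 before replicate 1. Of these 6, Per1, Per2, Nr1d1 and Dbp were higher in replicate 2, while Nr1d2 (-0.38 in KO and -0.098 in Y402F) and Per3 (-0.11 and -0.091) were lower, as Arntl and Clock were. As no collection time is given, the index neither dates the libraries nor orders them by time of day. In the mutants its difference between libraries and the sex pattern cannot be told apart.

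**Figure D3:**
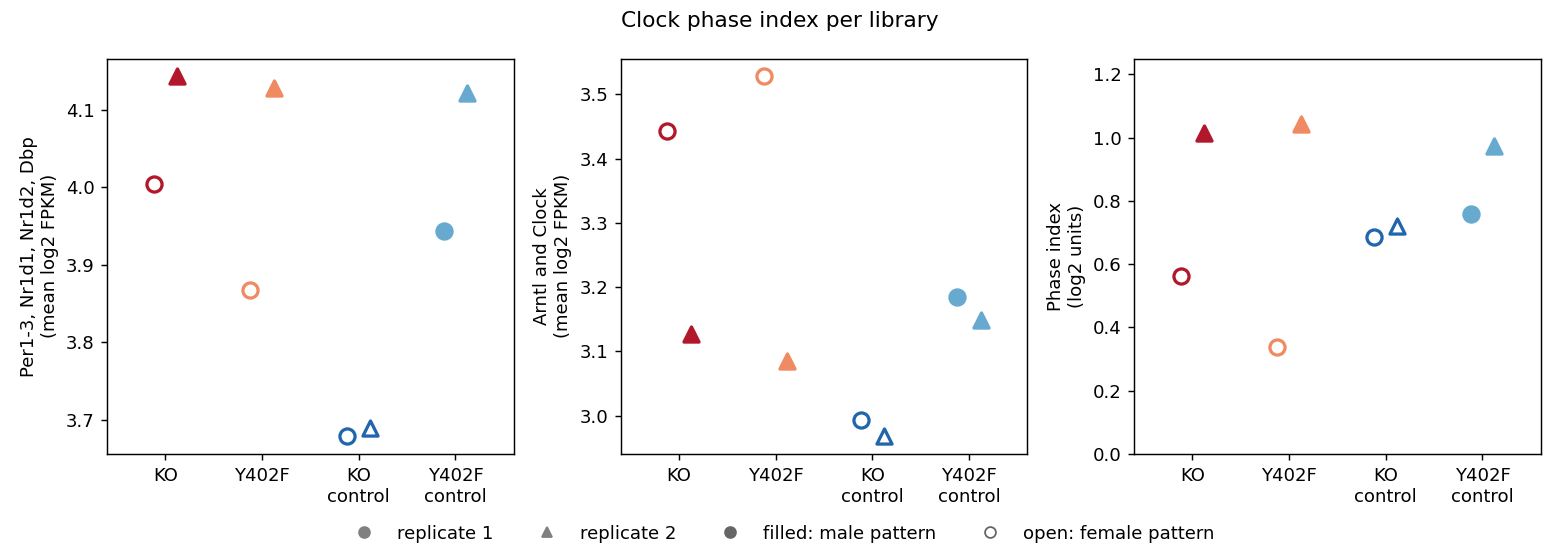
Mean log2 FPKM of the 6 day-phase genes (left), of Arntl and Clock (middle) and their difference, the phase index (right), for each library, with open symbols for the female and filled symbols for the male pattern, circles for replicate 1 and triangles for replicate 2. The index of the mutant groups ran from 0.34 to 1.04 and that of the controls from 0.69 to 0.97. The left and middle y axes do not start at 0.

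KO and Y402F were compared on expected counts, whose tables are of one kind. No clock gene was called: 0 of 10 passed an adjusted p of 0.05 by edgeR's quasi-likelihood test, beside 0.0148% of 13473 genes (2 genes, Npas4 higher and Ptk2b lower, 0.00742% each). The log2 differences, KO over Y402F, ran from -0.19 (SE 0.21) for Per2 to 0.23 (SE 0.20) for Per1, and edgeR's adjusted p was 0.999 for each. The 95% intervals reached from -0.62 to 0.24 for Per2, -0.20 to 0.65 for Per1, -0.16 to 0.46 for Nr1d1 and -0.33 to 0.43 for Arntl. DESeq2 called 0 clock genes and 1 gene in all, and 261 genes had an unadjusted edgeR p under 0.05. Within libraries of one sex pattern, KO minus Y402F had the same sign in female and in male libraries for 6 of 10 genes, 2 higher and 4 lower.

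For Dbp those within-sex differences were 0.49 between the female and -0.12 between the male libraries, and for Per1 they were -0.13 and 0.45. Nr1d1 differed by 0.14 and 0.16. Of the 19 other clock genes 0 were called between KO and Y402F, as were 0 of 12 glucocorticoid-induced and 0 of 9 temperature-responsive genes, lists whose members follow stress hormone and body temperature. Of 10 activity-induced genes Npas4 was higher in KO (log2 difference 1.94, SE 0.32, edgeR adjusted p = 0.0498), a call that was lost with DESeq2 and with no filter on low counts.

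These 3 lists were not flat in the other comparisons. Of the 10 activity-induced genes, 6 were lower and 0 higher in KO controls than in Y402F controls, 8 were higher and 0 lower in KO than in KO controls, and 0 were higher and 1 lower in Y402F than in Y402F controls. The early-response gene Egr1 was at -1.04 between the controls and 1.91 in KO, comparisons that share the KO controls. The summed level of the 10 was 248 and 326 in KO and 207 and 165 in Y402F, against 86.7 and 90.0 in KO controls and 160 and 164 in Y402F controls. Of 11 glucocorticoid-induced genes tested, 2 were higher and 0 lower between the controls, 2 higher and 2 lower in KO, and 0 higher and 3 lower in Y402F. Mt2, a metallothionein gene, was at 0.87 between the controls, -1.47 in KO and -0.85 in Y402F. Of the 9 temperature-responsive genes, 0 were higher and 1 lower between the controls, 4 higher and 2 lower in KO, and 4 higher and 1 lower in Y402F. The cold-inducible gene Rbm3 was at -1.12 between the controls, 1.74 in KO and 0.82 in Y402F. The shares of all genes called in these comparisons are given with the clock genes of each, and the part of these lists in the differences of the clock genes was not tested.

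The wild-type controls of the lines came from tables of one kind, with the lines split by sex pattern and by choroid plexus RNA. Here too 0 of 10 clock genes passed limma's adjusted p of 0.05, beside 7.98% of 12936 genes (4.82% higher and 3.15% lower), and with 3505 genes at an unadjusted p under 0.05. Nr1d2 came nearest, at -0.46 (SE 0.15, limma adjusted p = 0.0909) in KO controls over Y402F controls, followed by Nr1d1 at -0.32 (SE 0.13, limma adjusted p = 0.154) and Per2 at -0.75 (SE 0.33, limma adjusted p = 0.190). With sex as a further term, a choice made after the values were seen, Nr1d2 was called as lower, and without KO control replicate 2 Cry1 was called as higher, on the one library with 14.96. Each control group holds 1 sex pattern, so the sex term was estimated only from replicate 2 against replicate 1 of the mutants. It carries anything that differed between those mutant libraries and is not a correction for sex alone. Of 18 other clock genes tested, 2 were lower in KO controls and 0 higher. They were Bhlhe40, a repressor that competes at E-boxes (-0.52), and the kinase gene Gsk3b (-0.51).

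KO was set against its controls across the 2 kinds of table. Nr1d1 was higher in KO by 1.11 (SE 0.13, limma adjusted p = 0.000369), Nr1d2 by 0.70 (SE 0.15, limma adjusted p = 0.00735) and Cry2 by 0.45 (SE 0.12, limma adjusted p = 0.0183), on the log2(scaled FPKM + 1) scale. These 3 of 10 clock genes stand beside 37.6% of 12936 genes called, 16.6% higher and 21.0% lower. A count of 3 of 10 is near this background and shows nothing particular to the clock genes. The median log2 difference of the 10 was 0.43, against 0.00 over all genes. Arntl at 0.37, Clock at 0.42 and Dbp at 0.45 had limma adjusted p of 0.102, 0.122 and 0.110. The background itself fell to 3088 genes called, against 4864, when KO replicate 1 was left out. With sex as a further term the count was 5, Arntl and Clock being added, but that term was estimated only from the replicates of the mutants. Cry2 was called in 12 of 16 alternatives, and ran from 0.35 to 0.56 with 1 library left out. Dbp was called in 4 of 16 alternatives: with quantile normalization (0.68, limma adjusted p = 0.0244), with only the groups compared, and without either Y402F library, and its adjusted p ran from 0.00896 to 0.312 over the 16. Cry1 was called as lower without KO control replicate 2 (-1.78, limma adjusted p = 0.00218), and was at 0.036 without KO control replicate 1.

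Y402F was set against its controls in the same way. Nr1d1 was higher by 0.64 (SE 0.13, limma adjusted p = 0.00702) and Cry2 by 0.46 (SE 0.12, limma adjusted p = 0.0194), so 2 of 10 clock genes were called, beside 32.3% of all genes (13.0% higher and 19.3% lower), again near the background. The median of the 10 was 0.10, against 0.00 over all genes. Without Y402F replicate 2 the count was 0, with Nr1d1 at 0.55 (limma adjusted p = 0.0518), and without Y402F control replicate 2 it was 1. Dbp, at 0.11 in all libraries, was called as higher without Y402F replicate 1 (0.47, limma adjusted p = 0.0233) and was at -0.25 without Y402F replicate 2. Arntl was called with quantile normalization (0.49, limma adjusted p = 0.0433). Within libraries of one sex pattern, Nr1d1 stood 1.02 above the KO controls in female KO replicate 1 and 0.72 above the Y402F controls in male Y402F replicate 2.

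Scaling bears on both of these comparisons. Left unscaled, the median gene moved by -0.12 in each, Cry2 lost its call in both, and 1396 genes were called as higher and 3318 as lower in KO, against 2153 and 2711 with scaling. In Y402F the unscaled calls were 983 and 3124, against 1679 and 2499 with scaling. Quantile normalization gave 2906 higher and 2205 lower calls in KO and 2710 and 2145 in Y402F.

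Other genes of the pathway are given beside these. Of 18 tested, 3 were higher and 6 lower in KO than in KO controls, beside 16.6% higher and 21.0% lower of all genes, and 0 were higher and 7 lower in Y402F than in Y402F controls, beside 13.0% higher and 19.3% lower. Tef, a paralog of Dbp, was at 87.1 and 92.8 scaled FPKM in KO and 85.0 and 107 in Y402F, against 414 and 462 in KO controls and 494 and 493 in Y402F controls, a log2 difference of -2.27 in KO and -2.36 in Y402F. Csnk1d, a kinase of Period proteins, was at -0.82 in KO and -0.76 in Y402F. Bhlhe40 was called as higher in KO, at 0.72, and was at 0.32 in Y402F (limma adjusted p = 0.0798), a difference between effects of 0.40 (limma adjusted p = 0.373).

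The difference between the 2 effects, in which a processing step common to both lines cancels, called 0 of 10 clock genes, beside 0.0309% of 12936 genes (4 genes, 0.0% higher and 0.0309% lower) and with 1684 genes at an unadjusted p under 0.05. Nr1d2 had 0.61 (SE 0.21, limma adjusted p = 0.295) and Nr1d1 0.47 (SE 0.19, limma adjusted p = 0.338), and the other 8 had adjusted p of 0.611 or more. The 95% intervals were 0.13 to 1.09 for Nr1d2 and 0.05 to 0.90 for Nr1d1. For Cry2 the difference was -0.0067, with an interval of -0.39 to 0.38, and of the 18 other clock genes 0 were called. The difference between effects also carries that between the controls, whose lines were split by sex pattern and by choroid plexus RNA. KO controls over Y402F controls was -0.46 for Nr1d2 and -0.32 for Nr1d1, and KO over Y402F was 0.17 and 0.15 by edgeR. Genotype and these features of the controls cannot be told apart here.

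**Figure D4:**
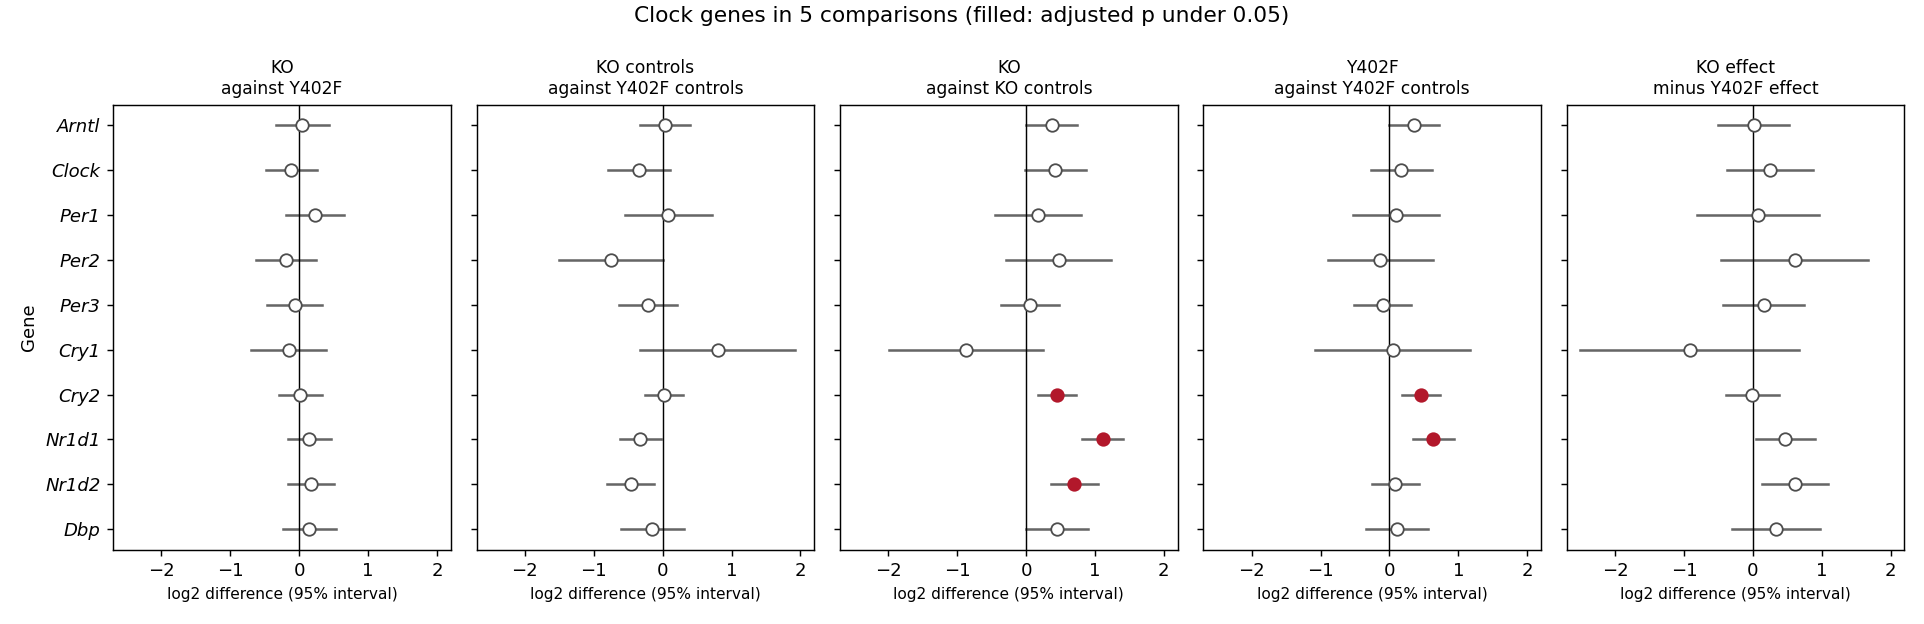
Log2 differences of the 10 clock genes (x axis, with 95% intervals) in 5 comparisons, from edgeR for KO against Y402F and from limma for the others, with filled points at an adjusted p under 0.05. Filled points are Nr1d1, Nr1d2 and Cry2 in KO against KO controls and Nr1d1 and Cry2 in Y402F against Y402F controls.

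Dbp, taken as the output of the loop, was compared with all 12939 other genes at a mean of 1 scaled FPKM or more for the likeness of its profile, after centring within the mutant and within the control libraries. Likeness was the root-mean-square distance over the 8 libraries on the log2 scale, for which a flat profile lies at 0.20 from Dbp. The nearest 5 genes were Abhd10 (0.051), Cirbp (0.058), Csf1r (0.058), Slc66a2 (0.060) and Wdr6 (0.065). Cirbp, which encodes a cold-inducible RNA-binding protein, was at 33.5 and 34.9 scaled FPKM in KO and 23.6 and 41.5 in Y402F, against 33.5 and 37.8 in KO controls and 37.6 and 37.4 in Y402F controls. Csf1r, a receptor gene of microglia, and the other 3 shared the low value in Y402F replicate 1. Among the clock genes the nearest to Dbp were Nr1d1 at rank 502 (0.165) and Cry2 at rank 672 (0.171). Per3 (0.246), Nr1d2, Per1, Arntl, Clock, Per2 and Cry1 lay farther from Dbp than a flat profile. Cry1 was the farthest at rank 12681 (0.602).

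**Figure D5:**
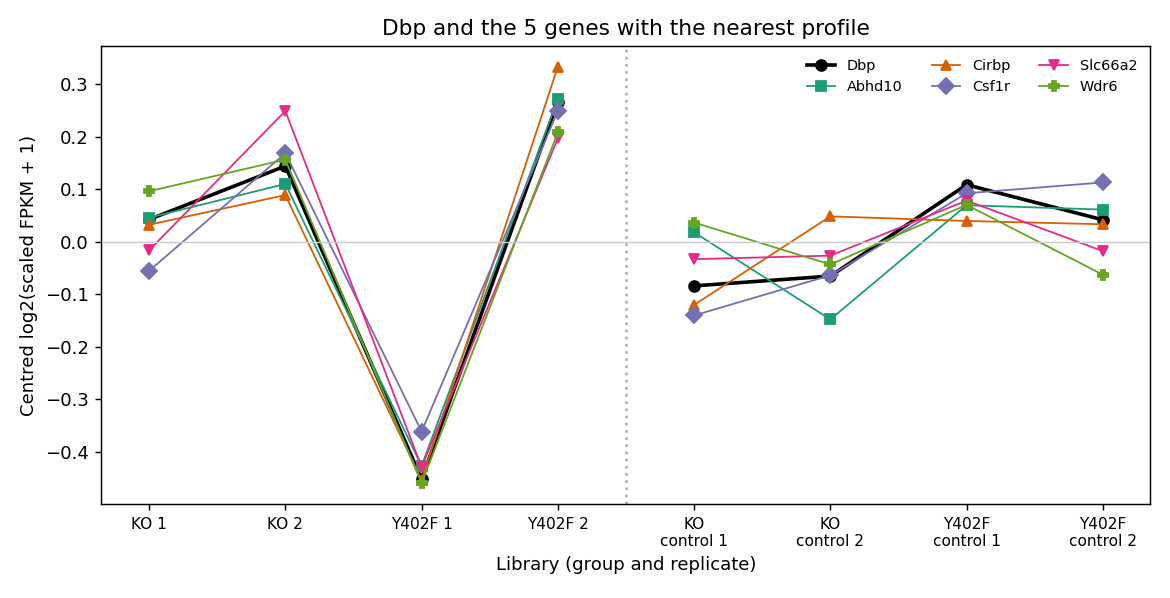
Centred log2(scaled FPKM + 1) (y axis) of Dbp and of the 5 genes with the nearest profile in each library (x axis), centred separately in mutant and control libraries, with lines only to guide the eye. All 6 genes had their lowest value in Y402F replicate 1.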

How the data were processed

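In the deposited mutant tables the authors give an expected count and an FPKM value for each gene, and the control tables give FPKM with confidence bounds, per the file headers. The submitters' processing notes name Bowtie 1, HISAT and, for the controls, Cufflinks, and the build mm9, but the gene positions in the control tables match GRCm38 at both ends for all 10 clock genes. Symbols and Entrez identifiers matched 17652 of 18022 genes. Each library was scaled by its median ratio to the geometric mean over 11427 genes. KO and Y402F were compared with edgeR 4.0.16 (quasi-likelihood, TMM) on expected counts rounded to whole numbers. The other comparisons used limma 3.58.1 (trend on mean level) on log2 of scaled FPKM plus a pseudocount of 1, in 12936 genes averaging 1 FPKM or more, with all 8 libraries in 4 groups, which understates changes of low genes. Adjusted p is Benjamini-Hochberg over all genes tested, with 0.05 as threshold, and R was 4.3.3. DESeq2 1.42.0, other scalings, filters, pseudocounts, a replicate block, a term for sex and leaving out each library were alternatives. The pipeline was tested on simulated data. All 10 clock genes are named, and from each further list genes could be named that were called or among the 4 with the smallest p. The members and lists were chosen with earlier results of these data known. A further gene of the list of other clock genes is not reported here and was left out of its counts. The phase index and the differences between the 2 libraries of a group have no test.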

Additional observations from a re-analysis of the deposited data

How the results depend on the processing

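Between KO and Y402F, and for the difference between effects, 0 clock genes were called under every alternative run. A term for sex gave 1 call between the controls (Nr1d2) and 5 in KO against KO controls. Within groups the sex pattern varied only in the mutants, so this term is their replicate difference and not a correction for sex alone. Without scaling, 1 was called in Y402F against Y402F controls. Leaving out 1 library each, the count ran from 0 to 1 between the controls, from 2 to 4 in KO (Dbp or Cry1 gaining a call) and from 0 to 3 in Y402F (Dbp gaining one). Nr1d1 and Nr1d2 kept their calls in KO under all 16 alternatives. Of 720 alternative values of single genes, 645 kept direction and side of the threshold, 8 lost and 11 gained a call, and 56 turned direction, none of them a called value. The cause was not tested.

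The replicate number as a block gave 0 clock genes called in KO against Y402F, 0 between the controls, 3 in KO, 2 in Y402F and 0 for the difference between effects. The labels do not say that a number pairs libraries. Deviations correlated across genes at 0.20 between KO and Y402F and at -0.03 to 0.05 between the other groups. For KO against Y402F the block is the same term as sex.

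Values that turned direction in KO controls against Y402F controls were Cry2 at -0.0093 with quantile normalization, and Arntl at -0.26 and Dbp at 0.26 with the term for sex. In KO against KO controls they were Per1 at -0.10 with that term and Per3 at -0.054 without scaling. In Y402F against Y402F controls they were, without scaling, Per1 at -0.045, Cry1 at -0.074, Nr1d2 at -0.056 and Dbp at -0.036, and, with the term for sex, Per2 at 0.055, Clock at -0.011 and Nr1d2 at -0.034. For the difference between effects they were, with that term, Per1 at -0.47 and Dbp at -0.074, with quantile normalization, Cry2 at 0.025 and Arntl at -0.034, and without scaling Cry2 at 0.0025.

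Leaving out 1 library each, KO against Y402F ranged from -0.27 to 0.60 for Per1, -0.45 to 0.14 for Per2, -0.14 to 0.018 for Per3, -0.33 to 0.064 for Cry1, -0.084 to 0.12 for Cry2, -0.12 to 0.25 for Arntl, -0.34 to 0.16 for Clock, -0.053 to 0.37 for Nr1d2 and -0.18 to 0.57 for Dbp. Between the controls the range was -0.18 to 0.35 for Per1, -0.11 to 1.71 for Cry1 and -0.055 to 0.098 for Cry2. In KO against KO controls it was -0.25 to 0.60 for Per1, -0.10 to 0.22 for Per3 and -1.78 to 0.036 for Cry1. In Y402F against Y402F controls it was -0.034 to 0.23 for Per1, -0.67 to 0.40 for Per2, -0.16 to 0.26 for Cry1, -0.051 to 0.40 for Clock and -0.25 to 0.47 for Dbp. For the difference between effects it was -0.34 to 0.50 for Per1, -0.11 to 0.099 for Cry2, -0.17 to 0.19 for Arntl and -0.023 to 0.70 for Dbp. Where a group kept 1 library, it was assumed to vary like the others.

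Counts over all genes moved more. Between the controls 1032 genes were called, against 513 with no filter, 170 with no intensity trend, 314 with only the groups compared and 169 to 867 without 1 library. KO against KO controls gave 4864, against 3088 without KO replicate 1. KO against Y402F gave 2 calls, against 4 with the block, 5 by limma and 18 to 44 without 1 library, and the difference between effects 4, against 7 with no filter, 135 with the term for sex and 6 to 15 without 1 library. Depth limits Cry1, Per2 and Per3 most, and for the controls it is unknown.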
